A study of Rattus norvegicus and Homo sapiens with 12 samples.

Results

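The genes described here are 38 genes of the hypoxia response and of glycolysis in DU145, a human prostate cancer cell line, out of 60107 gene IDs in the deposited DU145 count table. They were chosen by symbol, and each symbol was matched to 1 Ensembl ID. Of the 38 genes, 17 encode glycolytic enzymes and 21 encode other proteins that the hypoxia-inducible factors are known to control or that control these factors. The RNA was profiled by QuantSeq in 3 libraries of parental DU145 (F0) and 3 libraries of DU145 selected by exposure to conditioned media (CM) of human mesenchymal stem cells (MSCs), called F2. These 6 libraries are part of a series of 12, whose other samples are F0 and F2 of the rat line PAIII. F2 DU145 had been cultured in MSC CM in rounds of 72 h and recovered in complete media between them, with 2 rounds according to the labels of the samples and 3 according to the description of the series. Both populations were grown in DMEM with 10% FBS, and the labels name no hypoxic culture for any sample. Whether the 3 F2 samples were selected separately or sampled from 1 selected population is not given in the sources used here, so the spread between samples may be partly technical.

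Cells adapt to low oxygen mainly through HIF1A and its relative EPAS1, transcription factors that pair with ARNT and bind short motifs near their target genes. With oxygen present, the EGLN enzymes hydroxylate prolines of HIF1A, and VHL then recognizes the protein and leads it to degradation, so that HIF1A is controlled largely as a protein rather than as mRNA. Among the known targets are glucose transporters, most glycolytic enzymes, regulators that divert pyruvate from mitochondria, secreted factors such as VEGFA, and EGLN3 itself, which acts as a feedback inhibitor. Many tumor cells, DU145 among them, run glycolysis at high rates in the presence of oxygen.

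Counts assigned to genes ranged from 15879480 to 16479239 per library. Mitochondrially encoded genes took 5.71% to 6.0% of these counts in F0 and 10.2% to 10.6% in F2, which lowers the share left for all other genes in F2. Levels are therefore given as TMM-normalized counts per 1000000 (CPM), where a count of 3 corresponds to between 0.177 and 0.195 CPM. Since QuantSeq yields 1 read per transcript, from close to its poly(A) tail, CPM were not divided by gene length. The keratins KRT8, KRT18, KRT19 and KRT7 and EPCAM and CDH1 were above 10 CPM in F0, KRT5 had 0 counts in all 6 libraries, and so did KLK2 and FOLH1, which mark luminal prostate cells. All 6 detected epithelial markers passed an adjusted p of 0.05 between the populations, where 18.2% of all tested genes did. CDH1, the adhesion protein E-cadherin, had 202, 249 and 253 counts in F0 and 91, 90 and 89 counts in F2 (log2 fold change -1.27 ± 0.13, adjusted p = 7.6e-07), and KRT7 fell by 0.24 (adjusted p = 0.00032). KRT19 had 4576, 4218 and 4031 counts in F0 and 6579, 6093 and 6266 counts in F2 (0.67 ± 0.05, adjusted p = 8.9e-09), and KRT8, KRT18 and EPCAM rose by 0.24, 0.20 and 0.22. The rises of KRT8, KRT18 and EPCAM did not pass when libraries were scaled by their size alone. KRT8 overlapped between the groups, and its call held in 3 of 6 fits with a library omitted. That of EPCAM held in 1 of them, and DESeq2 did not call EPCAM (adjusted p = 0.12). Of 18 MSC markers, 6 had 0 counts in all libraries (THY1, VCAM1, CXCL12, SPARC, LUM and POSTN), and NT5E alone exceeded 10 CPM in F0. NT5E, the ecto-5′-nucleotidase CD73, rose from 158 ± 9.49 to 222 ± 10.3 CPM (log2 fold change 0.49 ± 0.05, adjusted p = 1.3e-06), and with it the sum of the 18 markers went from between 164 and 185 CPM in F0 to between 231 and 250 CPM in F2. The other 17 summed to between 16.3 and 18.8 CPM in F0 and between 16.0 and 16.5 CPM in F2. Among these, NES, an intermediate filament protein, rose from 5.73 ± 0.85 to 8.05 ± 0.57 CPM (0.49, adjusted p = 0.022), and FN1, which encodes fibronectin, had 83, 76 and 87 counts in F0 and 56, 46 and 57 counts in F2 (-0.52, adjusted p = 0.041), a call lost whichever library was omitted. DESeq2 called neither NES nor FN1. The part of these markers in the changes of the hypoxia and glycolysis genes was not tested.

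After the filter on low counts 36 of the 38 genes were tested, and 15 passed an adjusted p of 0.05 between F2 and F0 in the quasi-likelihood test of edgeR. Across all 14316 tested genes of the line, 2599 passed, or 18.2%. Higher in F2 were 12 of the 15, where 9.49% of all tested genes were higher, and lower in F2 were 3, where 8.67% of all tested genes were lower. The median log2 fold change of the 36 genes was 0.14, beside a median of -0.00 over all tested genes. In 14 genes all F2 libraries lay above all F0 libraries and in 6 all lay below, and such a lack of overlap was seen in 34.0% of all tested genes. These genes were also more abundant than most, with a median level of 80.7 CPM against 17.4 CPM over all tested genes. In a comparison added after the data were seen, 31 of them had a mean of at least 10 CPM and 15 of these 31 passed, where 23.3% of all 8650 tested genes at that level did. That floor does not match the levels above it, so the genes compared there can still differ in abundance.

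The changes were small. HK2, which rose by 1.06 on the log2 scale, was the 1 gene of the 36 past the threshold with a change of at least 2-fold, and NDRG1 and ENO2 were the other genes past it that changed by at least 0.5. Among the 17 enzymes, all tested, 4 rose (HK1, HK2, PGK1 and ENO2), 2 fell (PFKP and ENO1) and 11 did not pass, with a median of 0.05. Among the 19 tested genes of the other group, 8 rose (NDRG1, ADM, PDK1, HILPDA, VEGFA, ANGPTL4, ERO1A and SLC2A1), 1 fell (BHLHE40) and 10 did not pass, with a median of 0.25. The difference between the groups was not tested.

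**Figure D1:**
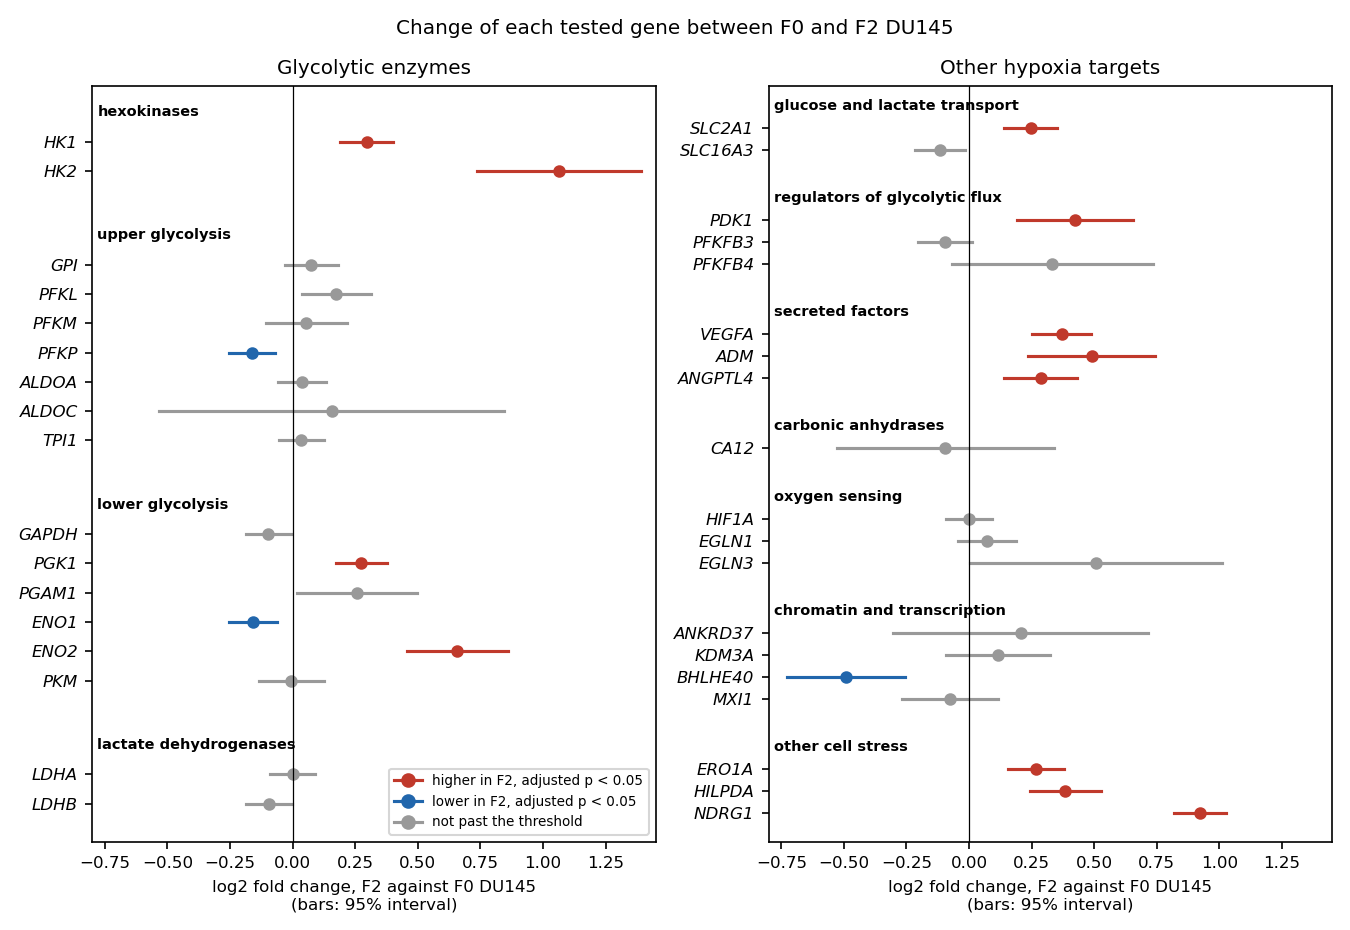
Log2 fold change of F2 against F0 DU145 for the 36 tested genes, with the 95% interval as a bar, for glycolytic enzymes on the left in pathway order and other hypoxia genes on the right by role. HK2 at 1.06 and NDRG1 at 0.92 lie farthest to the right. Between the hexokinases and the lactate dehydrogenases, GPI, PFKM, ALDOA, TPI1, GAPDH and PKM lie nearest to 0, from -0.10 (GAPDH) to 0.08 (GPI).

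The split into higher and lower depended on the scaling. When libraries were scaled by their size alone, the median of all tested genes moved by -0.09, and the genes past the threshold went from 1358 higher and 1241 lower to 832 higher and 2805 lower. Under that scaling the glycolytic enzymes had 4 higher and 4 lower, since GAPDH (adjusted p = 0.0034) and LDHB (adjusted p = 0.0043) then also passed as lower. The other group had 8 higher and 3 lower, since SLC16A3 (adjusted p = 0.0033) and PFKFB3 (adjusted p = 0.012) passed as lower. All 12 genes that rose and all 3 that fell with TMM also did so past the threshold with library size alone. The same calls held without mitochondrially encoded genes. That fit kept TMM and moved the median by only 0.00051, so it hardly tests the scaling.

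HIF1A, the oxygen-regulated subunit itself, is described first, because the other genes are read against it. Counts of HIF1A were 3933, 3994 and 4016 in F0 and 3649, 3604 and 3822 in F2, which after normalization were 237 ± 4.84 CPM (SD, n = 3) and 237 ± 5.79 CPM. The groups overlapped, and the log2 fold change was -0.00 with a 95% interval from -0.09 to 0.09, so that no difference of the mRNA was detectable. The gene lies at chr14:61695513-61748259 on the plus strand of GRCh38. Its mRNA carries the codons of the prolines that EGLN enzymes hydroxylate, proline 402 in exon 9 (chr14:61737046-61737081) and proline 564 in exon 12 (chr14:61740767-61740802) of the transcript HIF1A-201 in GENCODE release 29. Both lie in coding sequence, upstream of the 3′ end that QuantSeq reads, so the counts measure neither the sites nor their hydroxylation. They are shown, as 36 bases of the reference each with the proline codon in capitals, because they are the point at which oxygen acts on the protein rather than on the mRNA counted here.
HIF1A proline 402: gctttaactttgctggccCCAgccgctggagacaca
HIF1A proline 564: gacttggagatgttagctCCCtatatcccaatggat

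Of the prolyl hydroxylases, EGLN1, which is the main oxygen sensor of most cells, was at 72.2 ± 2.61 CPM before and 75.8 ± 3.15 CPM after selection, a log2 fold change of 0.07 (adjusted p = 0.42). EGLN3, itself a strongly induced target of HIF in many cells, had 30, 39 and 43 counts in F0 and 46, 37 and 65 counts in F2. These counts are low and the groups overlapped, since after normalization the second F2 library lay below the third F0 library. The log2 fold change of 0.51 ± 0.24 (SE) did not pass (adjusted p = 0.16).

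Beyond these genes, 13 of 14 further regulators of HIF were tested, and 2 passed. This was 15.4% of those tested, where 18.2% of all tested genes passed. CITED2, an induced inhibitor that competes with HIF1A for the coactivators EP300 and CREBBP, rose from 21.5 ± 1.74 to 26.3 ± 2.59 CPM (log2 fold change 0.29, adjusted p = 0.031), and its call held in 3 of 6 fits with a library omitted. EPAS1, which encodes HIF-2α, fell from 51.9 ± 0.13 to 45.5 ± 1.09 CPM (log2 fold change -0.19, adjusted p = 0.033), and its call was lost in all 6 of them. HIF3A could not be tested, and VHL (-0.15), ARNT (-0.09), HIF1AN (0.01) and EGLN2 (-0.15) did not pass. DESeq2 called neither CITED2 (adjusted p = 0.071) nor EPAS1 (adjusted p = 0.088). With library size alone 0 of the regulators were higher and 4 lower (EPAS1, VHL, EGLN2 and RBX1). The median over the 13 regulators was 0.01.

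Glucose enters the cell through transporters of the SLC2A family and is trapped by hexokinases. SLC2A1, the widely expressed glucose transporter GLUT1, had 1763, 1673 and 1644 counts in F0 and 1803, 1846 and 1946 counts in F2. After normalization every F2 library, from 115 to 124 CPM, lay above every F0 library, from 97.3 to 104 CPM, and the log2 fold change was 0.25 ± 0.05 (adjusted p = 0.0018). SLC2A3, the high-affinity transporter GLUT3, had 1 count in the 6 libraries together and could not be tested.

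HK2, a hexokinase that is induced in many tumors, showed the largest change of the 36 tested genes. It had 95, 90 and 144 counts in F0 and 218, 179 and 242 counts in F2, or 6.53 ± 1.73 and 13.7 ± 1.92 CPM. The third F0 library was the highest of its group and still lay below all F2 libraries, and the log2 fold change of 1.06 ± 0.16 (adjusted p = 7.3e-05) ranged from 0.95 to 1.30 when 1 library was left out. HK2 lies at chr2:74833981-74893359 on the plus strand of GRCh38. Its exons overlap those of the long noncoding RNA AC019069.1 on the opposite strand, which had 63, 83 and 81 counts in F0 and 137, 113 and 136 counts in F2 and rose by 0.87 on the log2 scale (adjusted p = 0.00046). The strand setting of the counting is not given in the sources used here, so reads of HK2 and of AC019069.1 may not be fully separated.

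HK1, the hexokinase of most tissues, was the more abundant of the pair, with 78.5 ± 1.54 CPM in F0 against 96.4 ± 2.25 CPM in F2. All F2 libraries lay above all F0 libraries and the log2 fold change was 0.30 ± 0.05 (adjusted p = 0.00035). HK2 made up 6.68%, 6.37% and 9.97% of the counts of both hexokinases in F0 and 12.7%, 10.5% and 14.1% in F2. The exact permutation test of this share gave p = 0.1, the smallest value that 3 against 3 libraries allow, so the test cannot reach 0.05. The HK2 share was larger in every F2 library than in any F0 library, and HK1 held most hexokinase counts in both populations.

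Apart from phosphofructokinase, 0 of the 4 genes between glucose-6-phosphate and the triose phosphates passed. GPI, which isomerizes glucose-6-phosphate, was at 375 ± 23.6 and 395 ± 20.8 CPM in F0 and F2 (log2 fold change 0.08). ALDOA, the main aldolase here, was at 868 ± 12.4 and 892 ± 56.7 CPM (0.04), and TPI1, which interconverts the triose phosphates, at 443 ± 2.47 and 454 ± 19.7 CPM (0.03). The intervals of GPI, ALDOA and TPI1 reached at most 0.18. ALDOC, the brain form of aldolase, stayed under 3 CPM in every library and its interval, from -0.53 to 0.85, leaves its change undetermined.

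Phosphofructokinase, the committed step, is encoded by 3 genes. PFKP, the platelet form and the most abundant in DU145, ranged from 245 to 259 CPM in F0 and from 220 to 226 CPM in F2, and fell by 0.16 on the log2 scale (adjusted p = 0.014). The call was lost without the first F2 library (adjusted p = 0.064) or the third (adjusted p = 0.059). PFKL, the liver form, was above every F0 library in all F2 libraries but did not pass (log2 fold change 0.17, adjusted p = 0.076), and PFKM, the muscle form, had a log2 fold change of 0.05. The share of PFKP among the counts of the 3 genes was 78.3% ± 0.16 in F0 and 74.7% ± 0.96 in F2, without overlap between the groups (exact permutation p = 0.1).

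In the lower part of glycolysis PGK1 and ENO2 rose, ENO1 fell, and GAPDH, PGAM1 and PKM did not pass. GAPDH, which oxidizes glyceraldehyde-3-phosphate and is often used as a reference gene, had 56037, 49703 and 51231 counts in F0 and 45806, 45854 and 44512 counts in F2. After normalization it was at 3117 ± 167 and 2915 ± 70.9 CPM, F2 lying below F0 in every library, and the log2 fold change of -0.10 ± 0.04 did not pass (adjusted p = 0.14). PGK1, which makes the first ATP of the pathway, rose from 208 ± 9.73 to 251 ± 12.2 CPM (log2 fold change 0.28 ± 0.05, adjusted p = 0.00057). PGAM1, a phosphoglycerate mutase, was at 24.3 ± 4.10 and 29.1 ± 4.71 CPM with overlapping groups (log2 fold change 0.26, adjusted p = 0.13).

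The enolases moved in opposite directions. ENO2, the neuronal enolase and a known hypoxia target, had 382, 324 and 306 counts in F0 and 532, 427 and 524 counts in F2. All F2 libraries were above all F0 libraries, at 31.7 ± 3.47 against 20.1 ± 2.26 CPM, and the log2 fold change was 0.66 ± 0.10 (adjusted p = 7.0e-05). ENO2 lies at chr12:6913745-6923698 on the plus strand of GRCh38, and no gene of the table overlaps its exons.

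ENO1, the ubiquitous enolase, was among the most abundant of the 36 genes, with 2975 ± 17.7 CPM in F0 against 2666 ± 175 CPM in F2. It fell by 0.16 on the log2 scale (adjusted p = 0.018), and this call was lost without the second F0 library (adjusted p = 0.10) or the first F2 library (adjusted p = 0.055). ENO2 therefore took 0.67% ± 0.08 of the counts of both enolases in F0 and 1.17% ± 0.06 in F2, higher in 3 of 3 F2 libraries than in any F0 library (exact permutation p = 0.1). The summed enolase counts remained almost wholly ENO1.

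At the end of the pathway, PKM, the pyruvate kinase whose splice forms were counted together, was at 2534 ± 233 and 2525 ± 233 CPM (log2 fold change -0.01). LDHA, which reduces pyruvate to lactate and is a classic HIF target, had 12695, 11762 and 12287 counts in F0 and 11488, 10775 and 11830 counts in F2. The normalized levels overlapped, at 730 ± 18.8 and 730 ± 27.6 CPM, and the log2 fold change was -0.00 with a 95% interval from -0.09 to 0.09. LDHB, the form that favors lactate oxidation, was at 505 ± 11.3 and 473 ± 19.8 CPM and did not pass (log2 fold change -0.09, adjusted p = 0.15). The LDHA share of both genes was 59.1% ± 0.88 in F0 and 60.7% ± 0.38 in F2, again without overlap (exact permutation p = 0.1).

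Shares of this kind were compared by the exact permutation test for 8 paralog families, and with Benjamini-Hochberg adjustment over the 8 no share passed (exact permutation, adjusted p = 0.16 for the 5 families at p = 0.1). Besides the 4 families given above, the fifth was PFKFB4 within PFKFB3 and PFKFB4. The shares of ALDOC, EGLN3 and SLC2A3 overlapped between F0 and F2.

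**Figure D2:**
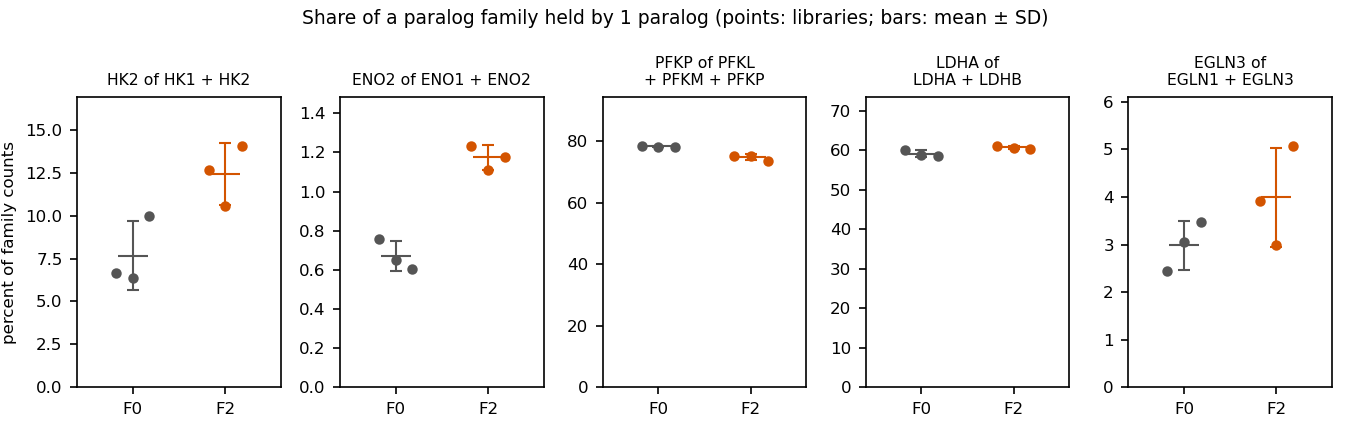
Percent of the counts of a paralog family held by HK2, ENO2, PFKP, LDHA and EGLN3 in each F0 and F2 DU145 library (points), with the mean and SD as bars and each axis starting at 0. HK2 (7.67% to 12.4% on average) and ENO2 (0.67% to 1.17%) were higher and PFKP (78.3% to 74.7%) lower in every F2 library, and EGLN3 overlapped.

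Summed over all 17 genes, glycolytic enzyme mRNA amounted to 12205 ± 419 CPM in F0 and 11772 ± 144 CPM in F2. As a share of all gene counts this was 1.26% ± 0.04 and 1.14% ± 0.02, a measure that also carries the larger mitochondrial share of F2. GAPDH, ENO1 and PKM held most of the sum, and without these 3 genes the remaining 14 amounted to 3579 ± 52.9 CPM in F0 and 3667 ± 10.5 CPM in F2. The 21 other hypoxia genes summed to 1192 ± 20.4 CPM in F0 and 1320 ± 15.7 CPM in F2, higher in every F2 library. As a share of all gene counts they came to 0.123% ± 0.002 in F0 and 0.128% ± 0.001 in F2. The log2 ratio of the summed CPM, which depends on the TMM scaling, was -0.05 for the 17 enzymes and 0.15 for the 21 other genes.

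Regulators that set the fate of fructose-6-phosphate and pyruvate gave mixed values. PDK1, the kinase that inactivates pyruvate dehydrogenase and so holds pyruvate back from mitochondria, ranged from 11.5 to 11.8 CPM in F0 and from 14.3 to 18 CPM in F2. It rose by 0.42 ± 0.11 (adjusted p = 0.011), and without the third F2 library, its highest, the log2 fold change was 0.31 and did not pass (adjusted p = 0.082). PFKFB3 and PFKFB4 make and degrade fructose-2,6-bisphosphate, an activator of phosphofructokinase. PFKFB3, at 167 ± 6.38 and 156 ± 8.70 CPM, did not pass (log2 fold change -0.10), nor did PFKFB4, at 2.92 ± 0.28 and 3.68 ± 0.42 CPM (0.33, adjusted p = 0.26). SLC16A3, the lactate exporter MCT4, was at 199 ± 5.95 and 184 ± 7.51 CPM and did not pass (log2 fold change -0.12, adjusted p = 0.099).

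The 3 secreted factors all rose. VEGFA, the main angiogenic growth factor, had 1266, 1331 and 1408 counts in F0 and 1594, 1666 and 1543 counts in F2. Its F2 levels, from 98.4 to 108 CPM, all exceeded its F0 levels, from 74.8 to 83.3 CPM, and the log2 fold change was 0.37 ± 0.06 (adjusted p = 0.00011). ADM, the vasodilator adrenomedullin, rose from 8.90 ± 0.71 to 12.5 ± 1.38 CPM (log2 fold change 0.49 ± 0.12, adjusted p = 0.0075). Its call was lost without the first F2 library (log2 fold change 0.40, adjusted p = 0.058).

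ANGPTL4, an inhibitor of lipoprotein lipase, rose from 39.1 ± 3.35 to 47.7 ± 1.10 CPM (log2 fold change 0.29 ± 0.07, adjusted p = 0.0070). Its exons overlap the antisense RNA RAB11B-AS1, which was at 4.19 ± 0.93 and 5.16 ± 0.57 CPM and did not pass (log2 fold change 0.30, adjusted p = 0.28). The mRNA of the secreted factors was counted here, and their protein was not measured.

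The carbonic anhydrases CA9 and CA12 buffer the acid that glycolysis produces, and CA9 is among the most widely used markers of hypoxia. CA9 had 0 counts in all 6 libraries, which allows at most 3 counts per library, or between 0.177 and 0.195 CPM. Its exons overlap those of ARHGEF39 on the opposite strand, which was counted at 40.3 ± 4.18 and 33.4 ± 3.29 CPM, and without the strand setting reads of both genes cannot be told apart. CA12 was at 3.52 ± 0.95 and 3.30 ± 0.14 CPM, and its log2 fold change of -0.09 had an interval from -0.53 to 0.34.

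Among the remaining targets, NDRG1 had the lowest adjusted p of the 36 genes. NDRG1, a stress-induced gene with a known role as a suppressor of metastasis in prostate cancer, had 1199, 1137 and 1187 counts in F0 and 2113, 2060 and 2024 counts in F2. The groups were far apart relative to their spread, at 70.0 ± 0.997 and 133 ± 3.18 CPM, and the log2 fold change of 0.92 ± 0.05 (adjusted p = 1.2e-10) ranged from 0.91 to 0.94 when 1 library was left out. HILPDA, which coats lipid droplets and inhibits their lipolysis, rose from 32.2 ± 1.40 to 42.0 ± 1.11 CPM (log2 fold change 0.38 ± 0.07, adjusted p = 0.00047). ERO1A, the oxidase that forms disulfide bonds in the endoplasmic reticulum, rose from 107 ± 6.05 to 129 ± 4.22 CPM (0.27 ± 0.05, adjusted p = 0.0013).

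Of the 4 genes grouped under chromatin and transcription, 1 fell and 0 rose. BHLHE40, a transcriptional repressor of the clock and hypoxia pathways, fell from 14.6 ± 1.73 to 10.4 ± 0.05 CPM (log2 fold change -0.49 ± 0.11, adjusted p = 0.0043), the 1 fall past the threshold outside the enzymes. KDM3A, a histone demethylase, was at 19.0 ± 2.61 and 20.6 ± 0.59 CPM (log2 fold change 0.12), and MXI1, an antagonist of MYC, at 21.5 ± 2.20 and 20.4 ± 0.36 CPM (-0.08). ANKRD37, an ankyrin repeat protein and HIF target, was at 2.49 ± 0.62 and 2.86 ± 0.69 CPM (0.21). The groups of these 3 genes overlapped and none passed.

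**Figure D3:**
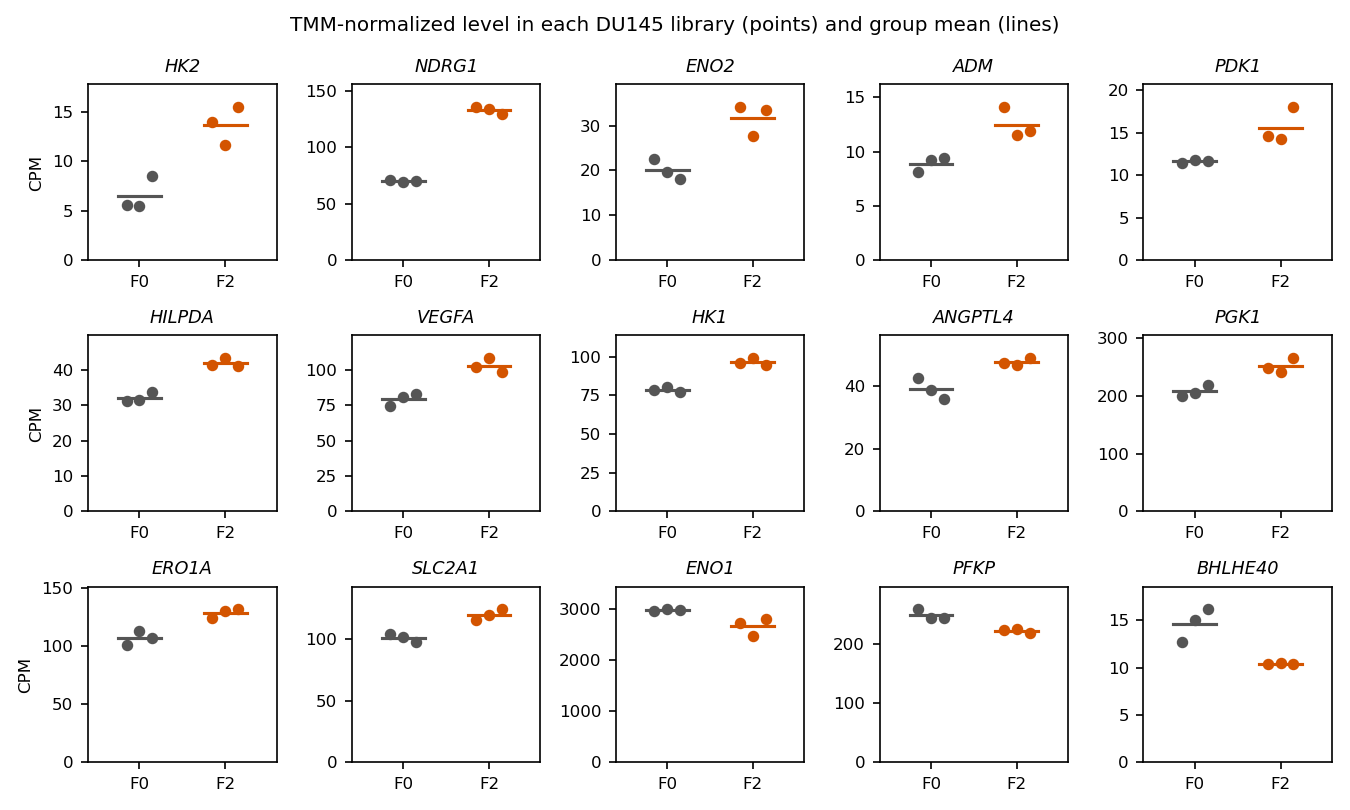
TMM-normalized CPM of the 15 genes past the threshold in each of the 3 F0 (grey) and 3 F2 (orange) DU145 libraries, with lines at the group means and each axis starting at 0, ordered by log2 fold change. F0 and F2 do not overlap in any of the 15 genes, which were selected by the test on these same libraries. The lack of overlap is therefore no separate support, and it was seen in 34.0% of all tested genes. The gap is widest relative to the spread for NDRG1 (70.0 and 133 CPM).

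Further genes of the hypoxia response and of neighboring pathways, listed separately from the 38, were examined in the same fit. Of 35 further hypoxia genes, 33 were tested, 7 rose, 3 fell and 23 did not pass, with a median log2 fold change of 0.11. The share past the threshold was 30.3%, beside 18.2% of all tested genes. With library size alone 4 were higher (BNIP3, STC1, AK4 and ZNF395) and 5 lower (PNRC1, PPP1R3C, BNIP3L, STC2 and CXCR4), and with DESeq2 5 were higher and 2 lower. BNIP3, a mitophagy receptor, had 1597, 1562 and 1640 counts in F0 and 2149, 2090 and 2185 counts in F2 (log2 fold change 0.53 ± 0.05, adjusted p = 1.5e-07). STC1, a secreted glycoprotein hormone, had 523, 502 and 523 counts in F0 and 740, 741 and 818 counts in F2 (0.68 ± 0.07, adjusted p = 5.8e-07). In both genes the F2 libraries lay clearly above F0.

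In the opposite direction, PNRC1, a nuclear receptor coactivator, had 620, 689 and 719 counts in F0 and 399, 411 and 388 counts in F2 (log2 fold change -0.65 ± 0.08, adjusted p = 5.3e-06). PPP1R3C, which targets protein phosphatase 1 to glycogen, had 196, 202 and 239 counts in F0 and 131, 125 and 136 counts in F2 (-0.59 ± 0.12, adjusted p = 0.0015). The other calls were smaller than 0.5 and comprised rises of AK4, ZNF395, P4HA1, P4HA2 and INSIG2 and a fall of BNIP3L. Of these, AK4 and ZNF395 passed whichever library was omitted, while P4HA1, P4HA2, INSIG2 and BNIP3L passed in 3, 2, 3 and 1 of those 6 fits.

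Of 32 further genes of glycolysis and pyruvate metabolism, 23 were tested, 4 rose, 1 fell and 18 did not pass, with a median of -0.00. The share past the threshold, 21.7%, was near the 18.2% of all tested genes. With library size alone 3 were higher (SLC16A1, PFKFB2 and PDP1) and 4 lower (PC, ENO3, HKDC1 and PDP2), and PDHA1 did not pass. SLC16A1, the lactate and pyruvate transporter MCT1, rose from 154 ± 4.30 to 184 ± 8.43 CPM (log2 fold change 0.26, adjusted p = 0.00077), and PFKFB2, which makes fructose-2,6-bisphosphate, rose by 0.32 (adjusted p = 0.0053). PDHA1, a subunit of pyruvate dehydrogenase, and PDP1, the phosphatase that reactivates it, rose by 0.20 and 0.38, with calls that held in 2 and 3 of the 6 fits with a library omitted. PC, the mitochondrial pyruvate carboxylase, had 78, 79 and 78 counts in F0 and 41, 46 and 45 counts in F2 (log2 fold change -0.72 ± 0.18, adjusted p = 0.0070). PDK1, which inhibits pyruvate dehydrogenase, and PDP1 and PDHA1, which act in the other direction, were all higher in F2 with TMM.

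**Figure D4:**
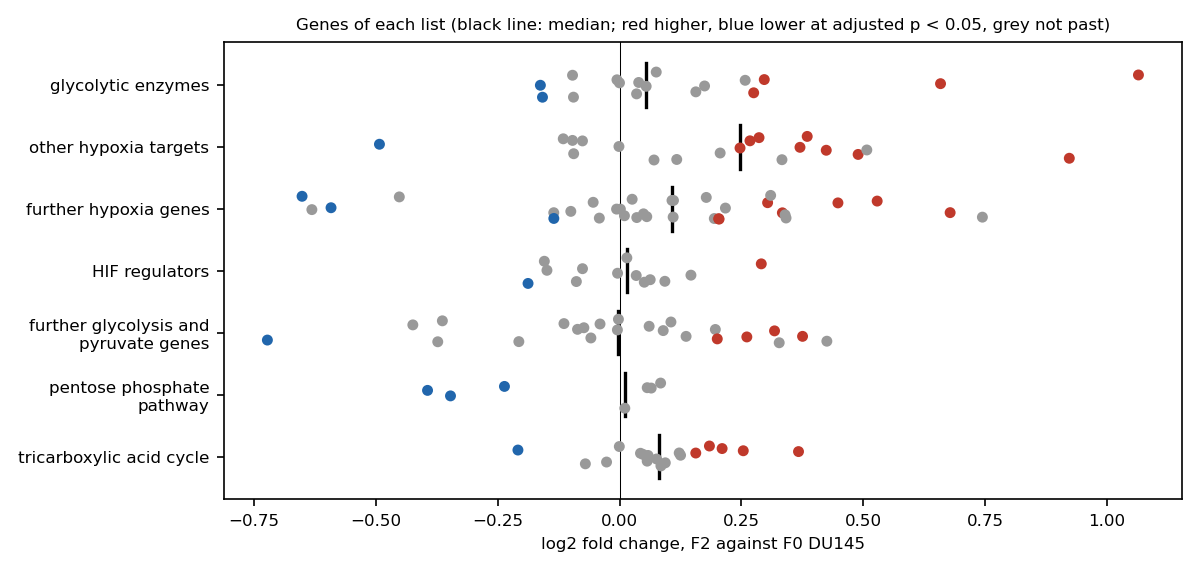
Log2 fold change of F2 against F0 DU145 for each tested gene (points, spread vertically for legibility only) of the glycolytic enzymes, the other hypoxia genes and 5 further lists, with the median as a black line. The medians lie between -0.00 and 0.25, the highest being that of the other hypoxia genes.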

How the data were processed

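RNA of F0 and F2 DU145 (3 samples each) was profiled by QuantSeq with single-end reads of 101 bases. The authors deposited raw counts per gene, without normalization; the submitters' processing notes name STAR 2.5.2a, HTSeq 0.6.0 and GRCh38, while the strand setting is not given in the sources used here. Lines that name no gene were left out: reads outside genes came to 9.60% to 11.9% and ambiguous reads to 1.36% to 1.50%. These percentages do not include alignments that were not unique, which were also left out. Per count assigned to a gene, there were between 0.591 and 0.624 such alignments in F0 and between 0.536 and 0.572 in F2. Their effect on genes with close copies was not tested.

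From these counts, R 4.3.3 with edgeR 4.0.16 was used to filter genes (filterByExpr, minimum count 10, minimum total 15), scale them by TMM and test F2 against F0 with the two-sided quasi-likelihood F-test, without covariates. Genes passed at an adjusted p under 0.05 (Benjamini-Hochberg, over all 14316 tested genes). SE and 95% intervals derive from that F statistic. Paralog shares were compared by two-sided exact permutation tests with Python 3.11.15 and scipy 1.17.1. Symbols were found for 56104 of the 60107 IDs, and positions and the HIF1A sequence were taken from GENCODE release 29 (GRCh38).

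The genes and lists were chosen with earlier results of these data known. All 38 genes were accounted for. Counts per library are given for HIF1A, VEGFA, CA9, SLC2A1, LDHA, GAPDH, EGLN3 and genes past the threshold with a log2 change of at least 0.5, and genes of other lists past both limits; other genes of those lists were named after their values were seen. The 13 alternatives comprised median-ratio factors, library size alone, 2 other filters, DESeq2 1.42.0, a replicate block, omission of mitochondrially encoded genes and omission of each library. The method was tested on simulated data, where changes of 0.5, 1 and 2 on the log2 scale passed in 61.5%, 87.2% and 100% of genes. Of genes simulated without a change, 0.072% passed. Changes smaller than 0.5 were not simulated, so a gene that did not pass may still have changed. Some genes of the lists are counted but not reported by name here. PAIII was not analysed here, because no table given pairs its identifiers with names.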

Additional observations from a re-analysis of the deposited data

How the results depend on the processing

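Of the 15 calls among the 38 genes, 11 held whichever library was left out, and PFKP, ENO1, PDK1 and ADM lost theirs as stated above. Glycolytic enzymes past the threshold numbered 6, between 4 and 7 with 1 library left out, and other hypoxia genes 9, between 8 and 9. Of 533 recomputed log2 fold changes of the 36 tested genes and of BNIP3, STC1, PPP1R3C, PNRC1 and PC, 500 kept direction and side of the threshold, 7 newly passed, 6 no longer passed and 20 changed sign. With library size alone the medians were -0.035 for the enzymes and 0.16 for the other hypoxia genes, and GPI (-0.015), PFKM (-0.035), ALDOA (-0.051), TPI1 (-0.055) and EGLN1 (-0.019) changed sign without passing. LDHA and HIF1A, at -0.00, changed sign with median-ratio factors (0.0012 and 6.2e-05) and without the low-count filter (0.0015 and 0.00043), and LDHA without mitochondrially encoded genes (0.00044). With 1 library left out, log2 fold changes ranged from -0.010 to 0.077 for ALDOA, from -0.30 to 0.48 for ALDOC, from -0.072 to 0.066 for PKM, from -0.024 to 0.031 for LDHA, from -0.23 to 0.14 for CA12 and from -0.020 to 0.012 for HIF1A. The 5 lists outside the 38 genes had 26 genes past the threshold, 17 with DESeq2 and between 15 (without the second F0 library) and 26 with 1 library left out, 17 without the third F2 library. All tested genes past the threshold numbered 2599, between 1670 (without the second F0 library) and 2621 with 1 library left out, 1911 with DESeq2 and 3637 with library size alone. The cause of these changes was not tested. PGAM1 passed without the low-count filter (adjusted p = 0.031) and without the third F0 library (adjusted p = 0.030), and PFKL without the first F0 library (adjusted p = 0.033).

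Deviations of same-numbered F0 and F2 samples were weakly correlated (0.036, -0.015 and 0.045), and those of differently numbered samples ranged from -0.058 to 0.022. These small values do not settle whether the numbers pair the samples. With a replicate block 2867 genes passed, against 2599 without it, and 6 enzymes and 9 other hypoxia genes were among the 2867. Depth limits ALDOC, CA12, EGLN3, ANKRD37 and PFKFB4, which had at most 76 counts in a library. Exons of PFKM, TPI1, SLC16A3 and ANKRD37 overlap those of SENP1, SPSB2, CSNK1D and UFSP2 on the opposite strand. Without the strand setting, reads of these pairs may not be fully separated. SENP1, SPSB2, CSNK1D and UFSP2 did not pass between F2 and F0. Reads near the 3′ end of ALDOA and LDHB would match other annotated genes that are not used here (72.8% and 61.6% of 101-base windows), and those of TPI1 with the pseudogene TPI1P1 (10.2%).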

Other observations

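Carbon can also leave glycolysis through the pentose phosphate pathway, which supplies NADPH and ribose. All 7 listed genes were tested, and 3 fell while 0 rose. These 3 were 42.9% of the list, where 8.67% of all tested genes were lower and 18.2% passed in either direction. PGD, a dehydrogenase of the oxidative branch, fell from 78.2 ± 2.39 to 59.5 ± 2.67 CPM (log2 fold change -0.39 ± 0.06, adjusted p = 5.6e-05). TKT, the transketolase of the other branch, fell from 345 ± 35.3 to 272 ± 34.3 CPM (-0.35 ± 0.07, adjusted p = 0.0025), and DESeq2 did not call it (adjusted p = 0.063). The same 3 genes were lower with library size alone. The median of the 7 genes was 0.01.

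Of 18 genes of the tricarboxylic acid cycle, 5 rose, 1 fell and 12 did not pass, with a median of 0.08. The share past the threshold was 33.3%, beside 18.2% of all tested genes. SDHA, a catalytic subunit of succinate dehydrogenase, rose from 108 ± 1.34 to 139 ± 15.1 CPM (log2 fold change 0.37 ± 0.06, adjusted p = 0.00035), and FH, the fumarase that follows it, rose by 0.25 ± 0.07 (adjusted p = 0.0097). Both calls held whichever library was left out, but with library size alone SDHA was the 1 gene still higher and FH did not pass (adjusted p = 0.077), with 1 gene lower. IDH2, SUCLG1 and IDH3A rose by 0.21, 0.18 and 0.16, with calls that held in 1, 2 and 2 of the 6 fits leaving out 1 library. Genes of both lists were named after their values were seen.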
